A study of Mus musculus with 4 samples.

Results

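Choroid plexus epithelial cells were followed in single-cell RNA-seq libraries of mouse brain hemispheres after sham surgery and at 1, 3 and 7 days after transient middle cerebral artery occlusion (tMCAO). The cells were chosen by their own counts of unique molecular identifiers (UMIs, each standing for 1 captured RNA molecule). A deposited cell was kept when it had 200 to 6000 detected genes and at most 10% of its UMIs on mitochondrial genes. A kept cell was a member when it had a UMI of at least 3 of the 5 genes Clic6, Sostdc1, Prlr, Htr2c and Kl and of at most 1 of the 3 motile cilium genes Ccdc153, Tmem212 and Foxj1. The rule found 2239 members among 54754 kept cells (4.09%), of 59429 cells deposited. There were 240 members in sham, 1065 on day 1, 608 on day 3 and 326 on day 7. Where 4 values stand in a row without names, they are those of sham and days 1, 3 and 7.

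The choroid plexus hangs in the brain ventricles as a fold of fenestrated vessels and stroma under 1 layer of epithelial cells. These cells make most of the cerebrospinal fluid by moving ions and water from blood to ventricle, and their tight junctions form the barrier between blood and cerebrospinal fluid. They secrete carrier proteins such as transthyretin, the thyroxine and retinol-binding protein carrier encoded by Ttr, and they respond to cytokines and interferons from both sides.

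All groups were male C57BL/6 mice, 8 weeks old by the labels, and the ipsilateral hemisphere was taken after perfusion with cold PBS and digested with papain. The tMCAO mice had the middle cerebral artery closed by a monofilament and then reperfused, and the sham mice had the operation without the occlusion. The design text places the sham library at day 7, so day 1 and day 3 differ from sham in both surgery and time after it. Each group was 1 library, the number of mice in a library was not given in the sources used here, and no difference between groups has a replicate check or a test. Every interval covers counting error within a library only. The libraries held 69392755 to 104023002 UMIs. Pairs of libraries shared 33 to 88 cell barcodes, none of them a member in both.

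The label of the cells was checked on genes outside the rule. Ttr took a median of 25.2% of the UMIs of a member in sham, 28.5% on day 1, 22.6% on day 3 and 23.7% on day 7. In the other kept cells the medians were 0.087%, 0.155%, 0.142% and 0.061%, so members stood far above the rest in each library. The summed level of Ttr in members, in CPM (the UMIs of a gene scaled to the total UMIs of all members of a library), was 253879 CPM in sham, 281472 on day 1, 239702 on day 3 and 247837 on day 7. The other kept cells had 1611, 4049.9, 4674 and 1453 CPM in the same order, higher on days 1 and 3 than in sham and on day 7. These sums include some cells rich in Ttr, the highest at 41.5%, 44.8%, 33.8% and 40.2% of their UMIs. The genes with the highest level in members over other kept cells, ranked by the lowest of the 4 ratios, began with Ttr (at least 51.2-fold in each library), 2900040C04Rik (43.5), the folate receptor gene Folr1 (31.4), the potassium channel gene Kcnj13 (30.9), 1500015O10Rik (30.7), the potassium channel subunit gene Kcne2 (29.1) and the cation channel gene Trpm3 (26.5). These genes fit the label. Because the members were chosen from the same cells, the ratios are a description.

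Members near the threshold of 3 genes were less uniform than the rest. In sham and on day 1, cells with exactly 2 of the 5 genes had a median of 0.378% and 0.150% Ttr (81 and 64 cells), and cells with exactly 3 had 21.5% and 33.2% (21 and 14 cells). On days 3 and 7 the step was small. Cells with exactly 2 had 5.98% and 5.65% Ttr (86 and 59 cells), and cells with exactly 3 had 8.60% and 7.98% (72 and 46 cells). Cells with all 5 genes had 25.3%, 28.1%, 24.7% and 25.4% in sham and on days 1, 3 and 7. Members with under 5% Ttr numbered 4, 5, 14 and 25.

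UMIs of hindbrain Hox genes were not detected in thinned members. After each member was thinned at random to 2000 UMIs, 0 of 233, 1059, 605 and 282 members had a UMI of any of 14 hindbrain Hox genes. These counts of 0, read as at most 3 cells each, allow a share of up to 1.29%, 0.283%, 0.496% and 1.06% of cells with such a UMI, and the exact 95% intervals end at 1.57%, 0.348%, 0.608% and 1.2996%. Without thinning, 1 member of day 3 had one. Of the thinned other kept cells, 0.065%, 0.019%, 0.067% and 0.047% had one. Whether cells from the hindbrain would show such a UMI at this depth was not tested. A UMI of 9 forebrain position genes was found in 11.6%, 10.3%, 10.1% and 13.1% of thinned members and in 70.4%, 56.9%, 59.7% and 52.8% of unthinned members. The split of members by Hox genes therefore had no cells on one side and was not made.

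Members took a larger share of the kept cells on days 1 and 3 than in sham and on day 7. They were 2.35% of kept cells in sham (exact binomial 95% interval 2.07 to 2.67), 6.37% on day 1 (6.01 to 6.75), 5.38% on day 3 (4.97 to 5.81) and 1.97% on day 7 (1.76 to 2.19). The ratios over sham were 2.71, 2.29 and 0.837. The size of these differences depended on the upper limits of the rule. Without the limits on genes and mitochondrial UMIs, the same gene criteria found 583, 1137, 661 and 543 cells, or 4.96% (4.58 to 5.37), 6.39% (6.04 to 6.76), 5.52% (5.11 to 5.94) and 3.03% (2.78 to 3.29) of the deposited cells, with ratios over sham of 1.29, 1.11 and 0.610 and the libraries in the same order. Of these cells, 41.2% stayed in sham, 93.7% on day 1, 92.0% on day 3 and 60.04% on day 7. In sham, 134 cells were lost for their number of genes alone, 180 for mitochondrial UMIs alone and 29 for both. The median mitochondrial percentage of the cells before the limits was 9.01% in sham and 8.61% on day 7, close to the limit of 10%, and 5.47% and 5.22% on days 1 and 3. The share of members is therefore a share after this loss, and a change in the number of these cells cannot be told apart from a change in their recovery. Other settings turned some directions. With an upper limit of 3000 genes day 3 was below sham (0.928% against 0.965%). Day 7 was above sham with a mitochondrial limit of 5% (0.594% against 0.495%) and with none of the 3 cilium genes (1.09% against 1.04%).

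**Figure D1:**
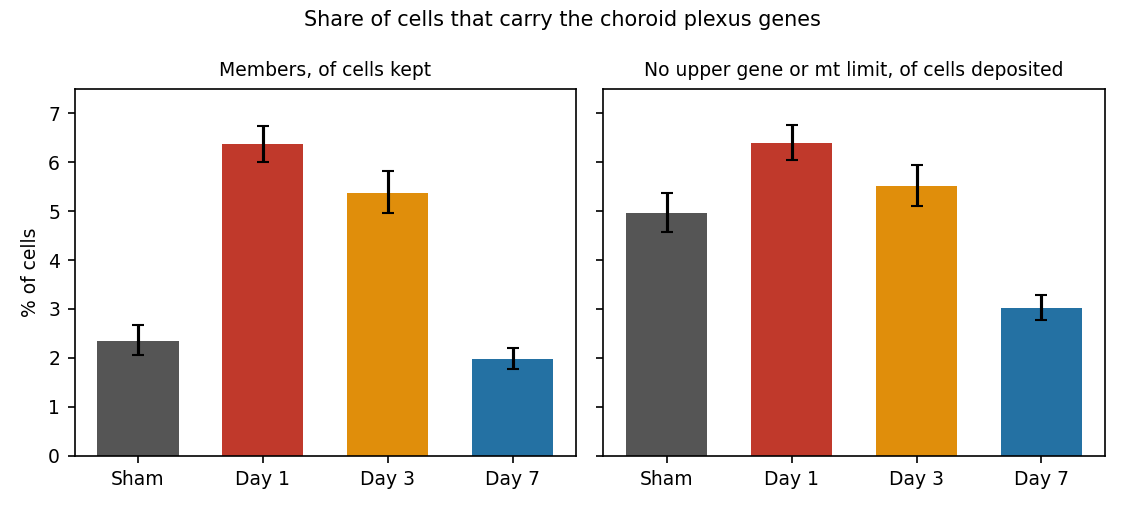
Share of choroid plexus cells in each library in % of cells, with bars for the share and error bars for the exact binomial 95% interval. On the left, members are 2.35%, 6.37%, 5.38% and 1.97% of kept cells, and on the right, where no upper limit is applied, sham lies at 4.96% of deposited cells and much closer to days 1 and 3.

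Members were deep cells. Their median was 31245.5 UMIs in sham, 18353 on day 1, 24513.5 on day 3 and 15577.5 on day 7, against 5393, 3479, 3498 and 3123 in the other kept cells. Members held 9.17%, 20.02%, 21.4% and 7.17% of all UMIs of kept cells. Their median mitochondrial percentage was 7.97%, 5.35%, 5.13% and 7.60%, so sham and day 7 lay above days 1 and 3. Scrublet, a caller of doublets, marked 6.67%, 20.1%, 4.61% and 14.1% of members, and 2.92%, 7.54%, 2.31% and 6.31% of all kept cells. Marked cells were kept in the values given here.

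Part of the members carried RNA of other cell classes, most often on day 3. A list of 49 markers of endothelial cells, mural cells, microglia, border macrophages, neutrophils and monocytes, oligodendrocytes, neurons and erythrocytes took a median of 0.0278%, 0.0248%, 0.0448% and 0.0438% of a member's UMIs, against 2.77%, 2.49%, 3.12% and 2.54% in the other kept cells. Members above 0.5% numbered 15 in sham (6.25%), 135 on day 1 (12.7%), 210 on day 3 (34.5%) and 52 on day 7 (16.0%). The upper quartile was 0.0664%, 0.0931%, 1.61% and 0.265%. Members under 0.1%, the marker-low members, were 191, 807, 353 and 206 cells, or 79.6%, 75.8%, 58.1% and 63.2%. Their median Ttr percentage was 25.7%, 30.2%, 26.0% and 26.6%, against 21.8%, 23.1%, 13.8% and 15.02% in the rest. The rest held more cells with only 3 of the 5 genes (24.5%, 2.33%, 27.5% and 29.2%, against 4.71%, 0.991%, 0.567% and 5.34% in marker-low members).

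The classes differed by day, and are low in marker-low members by choice. Endothelial markers summed to 295, 707, 1678 and 935 CPM in members and to 84.4, 95.5, 126 and 118 in marker-low members. Neutrophil and monocyte markers were near 0 in sham and on day 1 (0.617 and 0.659 CPM) and reached 295 and 165 on days 3 and 7 (15.9 and 2.81 in marker-low members). Oligodendrocyte markers were 345, 1064, 536 and 474 CPM, highest on day 1. Erythrocyte markers were 50.6, 12.7, 1093 and 968 CPM, and 38.7, 14.1, 30.8 and 8.19 in marker-low members. The part of these cells in each result was not tested, and values in marker-low members are given beside the results they touch.

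**Figure D2:**
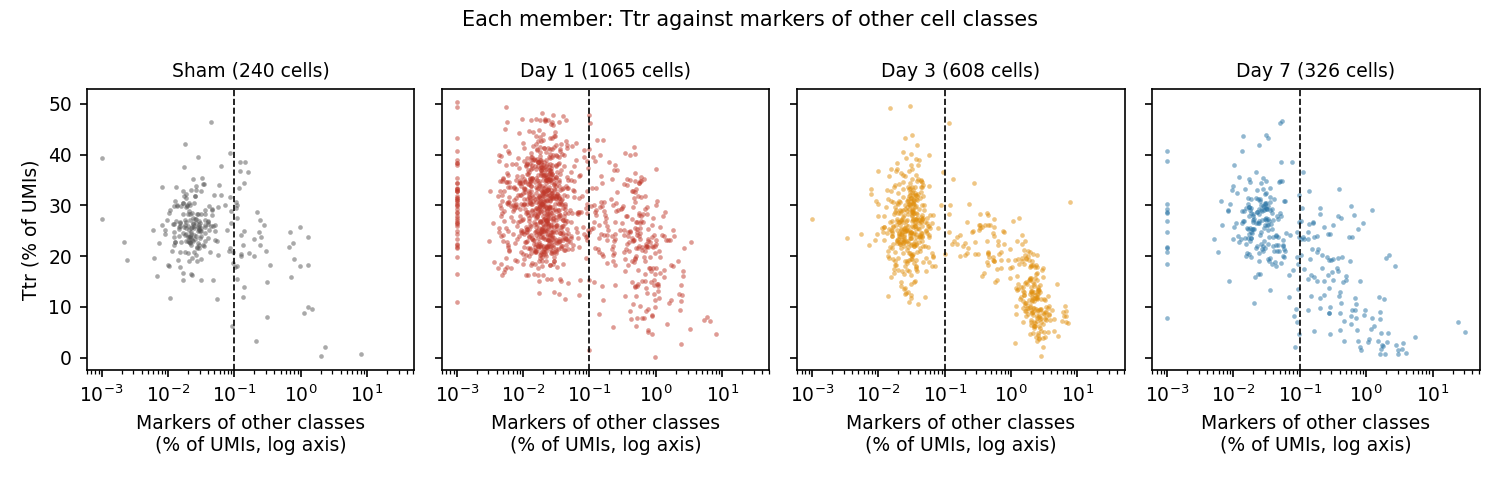
Each member as a point, with the percentage of its UMIs on 49 markers of other cell classes (log axis, members with none drawn at 0.001%) and the percentage on Ttr. The dashed line marks 0.1%. On day 3 a second group of points lies above 1% of markers and mostly below 20% Ttr.

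The 5 genes of the rule are high in members by choice, so each was read in cells that had at least 3 of the other 4. Sostdc1, a secreted antagonist of BMP and Wnt signals, was lower after tMCAO on each day, at 1583 CPM in sham, 702 on day 1, 828 on day 3 and 832 on day 7. Its ratios over sham were 0.443 (95% interval 0.432 to 0.455) on day 1, 0.523 (95% interval 0.509 to 0.538) on day 3 and 0.525 (95% interval 0.507 to 0.544) on day 7. Clic6, an intracellular chloride channel family gene, was the reverse and had 422 CPM in sham, 515 on day 1, 493 on day 3 and 521 on day 7, with ratios of 1.22 (95% interval 1.17 to 1.27), 1.17 (95% interval 1.12 to 1.22) and 1.23 (95% interval 1.17 to 1.299). Of the receptor genes, Prlr and Htr2c were below sham on days 1 and 3, and both and Kl were above it on day 7. Prlr, the prolactin receptor, had 702 CPM in sham, 529 on day 1, 556 on day 3 and 905 on day 7, and day 7 was 1.29 (95% interval 1.24 to 1.34) times sham. Htr2c, the serotonin receptor 2C, had 430.4 CPM in sham, 307 on day 1, 299 on day 3 and 653 on day 7 and a day 7 ratio of 1.52 (95% interval 1.44 to 1.59). Kl encodes Klotho, the co-receptor of FGF23, and had 748 CPM in sham, 756 on day 1, 624 on day 3 and 943 on day 7, with a day 1 ratio of 1.01 (95% interval 0.978 to 1.04). Between 222 and 1059 cells of a library entered each value.

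**Figure D3:**
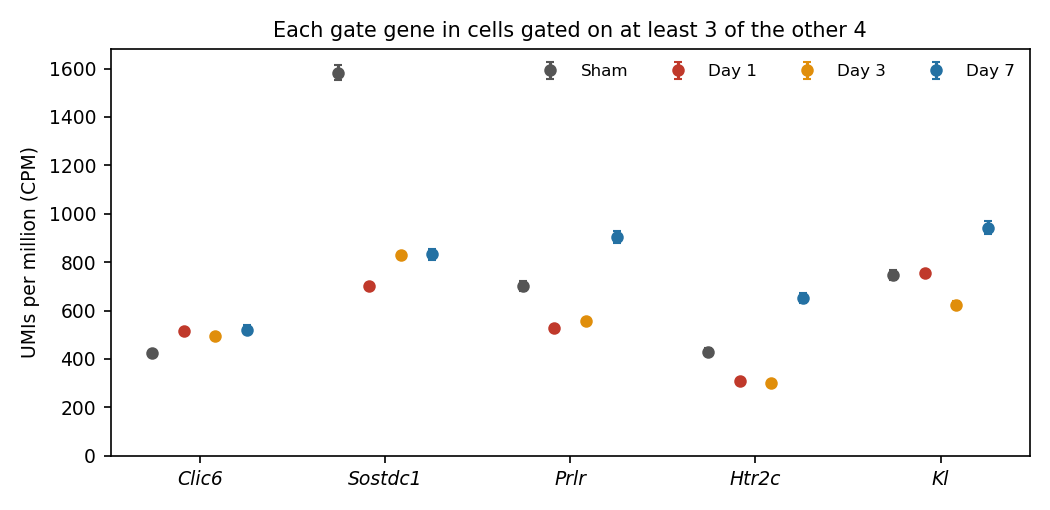
Level of each of the 5 genes of the rule in CPM, in cells with a UMI of at least 3 of the other 4 genes, with exact Poisson 95% intervals (counting error only). Sham stands above the 3 days after tMCAO for Sostdc1, and day 7 stands highest for Prlr, Htr2c and Kl.

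Across all other genes, few differed by 2-fold or more. A gene was compared when it had at least 50 CPM in one of both libraries and at least 0.5 times the level of the other kept cells in the library where it was higher, so that RNA of other cells weighs less. A gene could thus enter through 1 library alone, the one where it is high, and counts that rest on such genes are a description. It was past the fold when the log2 ratio, with 10 CPM added to both levels, was at least 1 or at most -1 and the 95% interval of the ratio left out 1. On day 1, 8 of 1983 genes were higher (0.403%) and 30 lower (1.51%). On day 3, 7 of 2076 were higher (0.337%) and 12 lower (0.578%). On day 7, 52 of 2298 were higher (2.26%) and 4 lower (0.174%). The median log2 ratio was -0.10, 0.03 and -0.05. All days share the 1 sham library, so what is particular to sham enters each of them. In marker-low members, 8 of 8 and 25 of 30 genes stayed past the fold on day 1, 4 of 7 and 10 of 12 on day 3, and 42 of 52 and 3 of 4 on day 7.

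The split of day 7 rested on the scaling. Median-of-ratios scaling moved the median log2 ratio from -0.05 to -0.32 on day 7 and from -0.10 to 0.03 on day 1. It gave 16 higher and 16 lower genes on day 7, and 10 higher and 16 lower genes on day 1. Of the genes past the fold, 16 of the 52 higher and 4 of the 4 lower on day 7 stayed under it, as did 8 of 8 and 16 of 30 on day 1 and 6 of 7 and 12 of 12 on day 3. Not all genes that were lost fell below 2-fold. On day 7 Hbb-bs (3.82), Timp3 (1.08), Sptan1 (1.05), Rora (1.02) and Neat1 (1.02) kept a log2 ratio above 1 with this scaling. That scaling divides the ratios of day 7 by 1.18, so a ratio between 1 and 1.18 on day 7 turns to the other side of 1 under it. The factor is the median ratio over genes with enough UMIs in both libraries. These include low genes and genes of other cells that were not compared, and on day 7 it left the compared genes less centred. It is a choice of scaling and not a margin of error. The nuclear RNA Malat1, chosen after its values were seen, had 8113, 2892, 2825 and 9092 CPM in members, so it was low on days 1 and 3 like the mitochondrial RNA. The part of these RNAs in the differences between genes was not tested.

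Of the 21 interferon-response genes of the list, the 4 that could be compared were lower in members on days 1 and 3 than in sham. Interferons induce such genes through transcription factors that bind a repeated GAAA motif in their promoters. All 4 genes of the 21-gene list that could be compared were past the fold and lower on day 1, beside 1.51% of all genes, and 2 of 4 were on day 3, beside 0.578%. On day 7 none was, in either direction. With median-of-ratios scaling Ifi27 lay just inside the threshold on day 1, which left 3 of 4. In the comparisons of days 1 and 3, Rtp4 reached 50 CPM in sham alone and so entered through the library where it is high. Of the other 3 genes, 3 were past the fold on day 1 and 1 on day 3. Ifi27l2a (ENSMUSG00000079017, chr12:103442167-103443680 of GRCm38), a small interferon-inducible protein gene, had 699 CPM in sham, 55.3 on day 1, 137 on day 3 and 775 on day 7. Its ratio over sham was 0.0790 (95% interval 0.0739 to 0.0844) on day 1, 0.196 (95% interval 0.185 to 0.206) on day 3 and 1.11 (95% interval 1.06 to 1.16) on day 7. Sham and day 7 were thus high and days 1 and 3 low, and the day 7 ratio lies within the scaling factor of 1.18. Marker-low members had 719, 44.5, 124 and 854 CPM. After thinning to 2000 UMIs, 54.5% of members had a UMI of Ifi27l2a in sham, 6.52% on day 1, 22.6% on day 3 and 56.4% on day 7, while the thinned other kept cells had 17.0%, 7.69%, 13.4% and 8.13%. Without thinning the shares in members were 85.8%, 37.1%, 69.2% and 77.6%.

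The other 3 compared genes had the same order of sham over day 3 over day 1. Bst2 (ENSMUSG00000046718, chr8:71534255-71537456) encodes tetherin, which holds budding virus particles on the cell surface, and had 879 CPM in sham, 249 on day 1, 519 on day 3 and 1019.9 on day 7. Its log2 ratio was -1.78 on day 1, -0.75 on day 3 and 0.21 on day 7, where the ratio of 1.16 is also within that factor. Ifi27 (ENSMUSG00000064215, chr12:103434211-103440239), which lies beside its relative Ifi27l2a, had 2311 CPM in sham, 1061 on day 1, 1538 on day 3 and 1743 on day 7 and log2 ratios of -1.12, -0.58 and -0.41. How reads that fit both relatives were counted was not given in the sources used here. Rtp4 (ENSMUSG00000033355, chr16:23520291-23614222), an interferon-inducible transporter protein gene, had 103 CPM in sham, 10.4 on day 1, 40.4 on day 3 and 53.2 on day 7. Its log2 ratios were -2.46, -1.16 and -0.83, and day 7 was not back at the level of sham.

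Isg15, Ifit1, Irf7 and Ifitm3, well-known genes of the list, were also lowest on day 1. They were not compared, because the other kept cells had far more or, for Ifit1, because it had under 50 CPM in each library. The remaining genes of the list that were not compared are not given here. Isg15, a ubiquitin-like modifier, had 51.4, 14.0, 44.1 and 43.4 CPM in sham and on days 1, 3 and 7, and 31.3, 3.97, 5.53 and 36.0 in marker-low members. Ifit1, which binds viral RNA, had 38.2, 6.49, 15.6 and 42.0 CPM. Irf7, a transcription factor of the pathway, had 50.1, 7.55, 27.8 and 28.6 CPM. Ifitm3, which blocks virus entry, had 742, 222, 644 and 492 CPM in all members and 691, 135, 265 and 443 in marker-low members, so its value on day 3 was much lower when the other members were left out.

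The promoters of 4 genes of the list are shown as examples. Of these 4 only Bst2 was compared, and the promoters of Ifi27l2a, Ifi27 and Rtp4 are not shown. The sequences span 250 bases before to 50 bases after the start of transcription in RefSeq on GRCm38.p6. They are read 5′ to 3′ on the strand of the gene. Capitals mark matches to the letters GAAANNGAAA on either strand, where overlapping matches run together. Bst2 (chr8:71537423-71537722, minus strand) holds 2 matches, Isg15 (chr4:156200769-156201068, minus strand) 3, Ifitm3 (chr7:141010695-141010994, minus strand) 2 and Ifit1 (chr19:34640639-34640938, plus strand) 2.
Bst2: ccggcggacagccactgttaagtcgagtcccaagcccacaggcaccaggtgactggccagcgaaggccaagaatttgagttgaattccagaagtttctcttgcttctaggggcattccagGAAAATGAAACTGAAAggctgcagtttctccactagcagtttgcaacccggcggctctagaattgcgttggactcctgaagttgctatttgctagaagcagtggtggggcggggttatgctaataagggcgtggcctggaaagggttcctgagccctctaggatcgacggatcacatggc
Isg15: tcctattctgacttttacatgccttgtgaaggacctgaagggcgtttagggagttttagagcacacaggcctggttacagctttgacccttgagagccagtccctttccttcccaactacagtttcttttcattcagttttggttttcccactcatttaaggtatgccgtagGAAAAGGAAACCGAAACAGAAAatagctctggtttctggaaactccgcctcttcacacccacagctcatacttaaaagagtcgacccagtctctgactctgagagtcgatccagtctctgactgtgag
Ifitm3: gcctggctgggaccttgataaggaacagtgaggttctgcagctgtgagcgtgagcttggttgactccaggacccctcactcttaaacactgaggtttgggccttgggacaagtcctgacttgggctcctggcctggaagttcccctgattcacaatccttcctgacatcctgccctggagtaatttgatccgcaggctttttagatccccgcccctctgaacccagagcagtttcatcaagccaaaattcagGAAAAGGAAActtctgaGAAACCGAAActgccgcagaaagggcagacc
Ifit1: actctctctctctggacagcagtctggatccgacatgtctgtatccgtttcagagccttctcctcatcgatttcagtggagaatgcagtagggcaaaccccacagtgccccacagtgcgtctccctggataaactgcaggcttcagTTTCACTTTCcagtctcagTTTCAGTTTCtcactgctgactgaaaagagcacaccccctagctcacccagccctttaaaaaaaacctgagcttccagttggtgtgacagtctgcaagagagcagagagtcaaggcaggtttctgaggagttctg
These letters are in 1131 of all 32851 promoters of this length in the table (3.44%), and in 9 of the 15 list genes found there. A match is a description of the letters and not a bound site.

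The summed list had 5090.1 CPM in sham, 1697 on day 1, 3176 on day 3 and 4431 on day 7 in members, with ratios over sham of 0.333 on day 1, 0.624 on day 3 and 0.871 on day 7. Marker-low members had 5011, 1628, 2749 and 4487 CPM and ratios of 0.325, 0.549 and 0.895. The other kept cells were also lower on each day, at 8667, 2687, 6088 and 3169 CPM, and their day 7 was 0.366 times sham while the members' was 0.871 (0.740 under median-of-ratios scaling). Ependymal cells, chosen by a UMI of all 3 cilium genes and of at most 1 of the 5 genes of the rule (79, 376, 64 and 104 cells), had 3169, 3125, 4315 and 1858 CPM and day 1 at 0.986 times sham. The low value of day 1 was thus seen in members and in the other kept cells but not in ependymal cells, and the day 7 level near sham was seen in members. The other kept cells mix classes whose shares can differ between libraries, and the part of this in their sums was not tested. In the members' sum of sham, Ifi27, Bst2, Ifitm3 and Ifi27l2a made up most of the CPM. With 1 library a group these differences between cell classes were not tested.

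**Figure D4:**
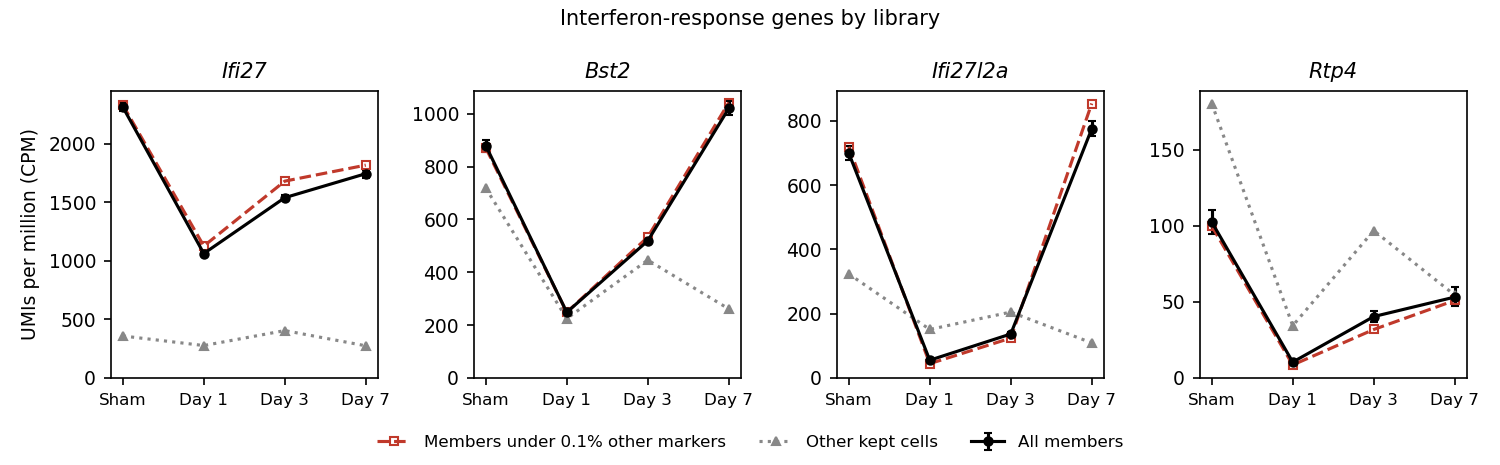
Levels in CPM of the 4 compared interferon-response genes in all members (black, with exact Poisson 95% intervals), in members under 0.1% markers of other classes (red squares) and in the other kept cells (grey). In members each gene is lowest on day 1, and Bst2 and Ifi27l2a are above the sham level on day 7 by less than the scaling factor of 1.18, while the other kept cells are below it.

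Of 22 choroid identity genes, which define the epithelium, 21 were compared. None was past the fold and higher on any day, beside 0.403%, 0.337% and 2.26% of all genes, and 1 was lower, on day 1, beside 1.51%. Counts this low are close to those over all genes. That gene was Msx1, a homeobox transcription factor gene, with 567 CPM in sham, 212 on day 1, 301 on day 3 and 279.9 on day 7 and log2 ratios of -1.38, -0.89 and -0.99. Marker-low members had 582, 221, 331 and 289 CPM. The median log2 ratio of the list was -0.13, -0.18 and 0.07, beside -0.10, 0.03 and -0.05 over all genes. Folr1, which carries folate into the fluid, had 1231 CPM in sham, 1006 on day 1, 1071 on day 3 and 1202 on day 7. Otx2, a transcription factor the plexus needs to form, had 157, 149, 159 and 252 CPM. Kcnj13, an inward rectifier potassium channel of the ventricle side, had 519.9, 299, 534 and 766 CPM, lowest on day 1 and highest on day 7. Kcne2 had 433, 246, 321 and 333 CPM, and Tmem72, a membrane protein gene, 202, 170.1, 203 and 386 CPM.

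Ion and water transport genes drive fluid secretion, and 15 of 23 were compared. None was past the fold on days 1 and 3, and 1 was higher on day 7, beside 2.26% of all genes. Atp1b3, a beta subunit of the sodium pump, had 99.6 CPM in sham, 143 on day 1, 157 on day 3 and 229 on day 7, and the ratio on day 7 was 2.30 (95% interval 2.09 to 2.53). Its log2 ratio of 1.13 fell to 0.90 with median-of-ratios scaling, under the threshold. Atp1b1, the main beta subunit, had 1033, 639.9, 717 and 900.4 CPM and was below sham on days 1 and 3. Slc12a2, the cotransporter NKCC1, had 421, 490.1, 351 and 595 CPM. The water channel gene Aqp1 had 131, 122, 127 and 164 CPM. The bicarbonate carrier gene Slc4a5 had 172, 169, 147 and 255 CPM. Its relative Slc4a10, which brings sodium and bicarbonate in from the blood side, had 255, 277, 194 and 347 CPM. On day 7 each of these 4 genes was above sham, by less than 2-fold. Carbonic anhydrases make bicarbonate, and Car2 had 501, 368, 431 and 478 CPM and Car14 244, 271, 299 and 302 CPM. Trpv4, a cation channel, had 105, 112, 131 and 123 CPM. Stk39, the kinase SPAK that activates NKCC1, had 321, 259, 277 and 449 CPM. The ratio of the summed list on day 7 was 1.15, and 0.974 under median-of-ratios scaling.

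Junction genes seal the epithelium, and 4 of 17 were compared, with none past the fold on any day. Between 0.174% and 2.26% of all genes were past it in a given direction and day, so a count of 0 among so few genes says nothing about the list. Cldn1 had 54.1 CPM in sham, 89.0 on day 1, 45.8 on day 3 and 88.1 on day 7 and Cldn2, a claudin that lets cations pass, 126, 104, 126 and 177 CPM. F11r (junctional adhesion molecule A) had 98.5, 68.5, 92.8 and 104 CPM, and Ctnnb1 (beta-catenin) 146, 164, 167 and 248 CPM. Of the carriers of solutes and vitamins, 9 of 24 were compared and none was past the fold, a count to which the same applies. Slc16a8, a lactate carrier, had 134, 180.1, 158 and 257 CPM. Slc23a2, the vitamin C carrier, had 72.9, 93.7, 85.3 and 140.4 CPM, and the thyroid hormone carrier Slco1c1 had 291, 229.7, 242 and 363 CPM. Day 7 had the highest CPM in each of these 3 genes. The summed carriers had ratios of 0.932 on day 1, 1.03 on day 3 and 1.41 on day 7, and the summed junction genes 1.08 on day 1, 1.10 on day 3 and 1.47 on day 7. With median-of-ratios scaling the day 7 ratios were 1.19 and 1.25. In marker-low members the carriers had ratios of 0.900, 0.958 and 1.29 and the junction genes 0.941, 1.03 and 1.37, so the carriers on day 3 and the junction genes on day 1 were on the other side of sham. With median-of-ratios scaling the carriers also turned, to 1.01 on day 1 and 0.996 on day 3. The rise on day 7 was not particular to members. In ependymal cells the day 7 ratios were 1.35 for the carriers and 1.51 for the junction genes. In the other kept cells they were 1.38 and 1.42. Slc2a1, the glucose carrier GLUT1 that brain endothelium also makes, had 50.4, 78.3, 159 and 134 CPM in all members, but 35.0, 35.4, 41.4 and 44.2 in marker-low members.

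**Figure D5:**
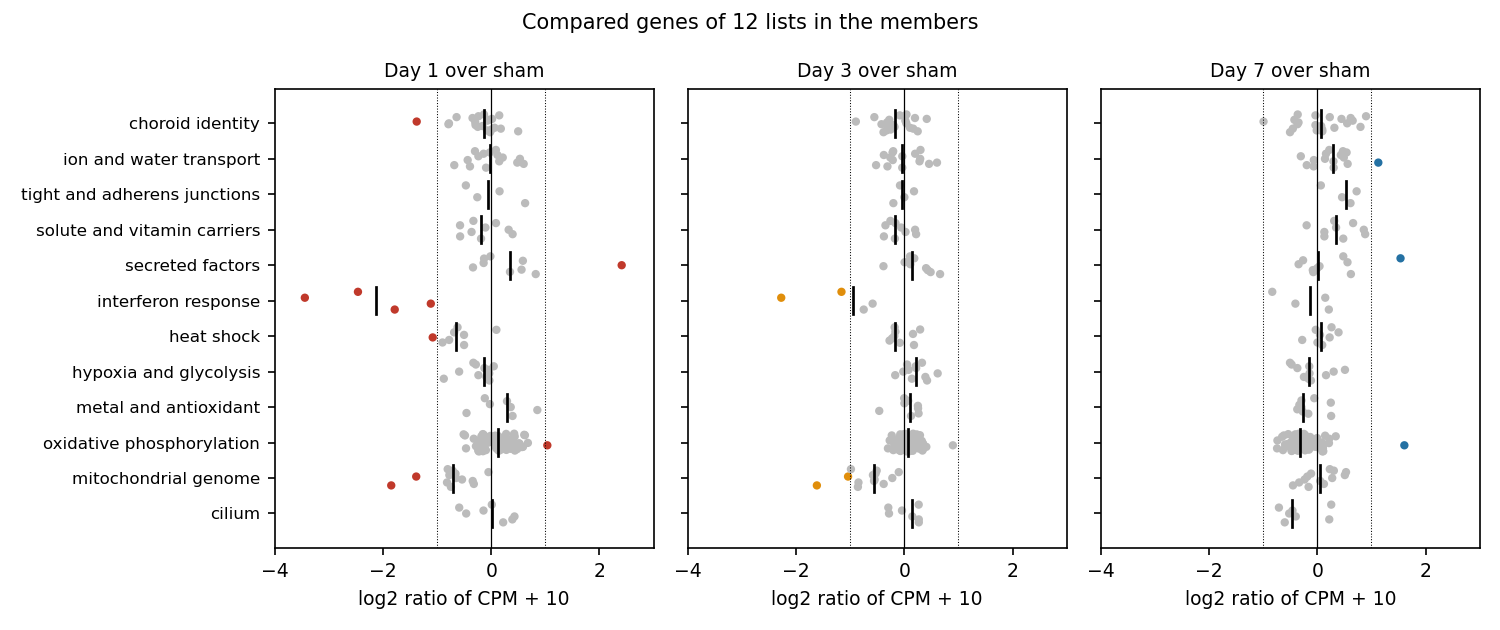
Log2 ratios over sham, with 10 CPM added, of the compared genes of 12 lists in members. Grey points are not past the fold, coloured points are, short bars are list medians and dotted lines mark -1 and 1. The interferon list has all 4 points past -1 on day 1 and 2 on day 3, and most points of the other lists lie between the dotted lines.

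Of the secreted factors, 9 to 10 of 24 were compared, and 1 was higher on day 1, none on day 3 and 1 on day 7, beside 0.403%, 0.337% and 2.26% of all genes. The gene of day 1, Gpx3, entered only through that day, where it is high, so this count shows nothing about the list. Gpx3, the secreted glutathione peroxidase, had 4.01 CPM in sham, 64.5 on day 1, 19.4 on day 3 and 16.4 on day 7, so day 1 was 16.1 (95% interval 10.9 to 24.7) times sham. It was seen in few cells, with a UMI in 0%, 6.70%, 4.13% and 2.84% of thinned members and 0.362%, 1.10%, 0.336% and 0.285% of the thinned other kept cells. The 0 of 233 members in sham, read as at most 3, allows a share of up to 1.29%. Trf, the iron carrier transferrin, had 149 CPM in sham, 501 on day 1, 573 on day 3 and 451 on day 7 and 126, 403, 581 and 435 in marker-low members. Its log2 ratio on day 7 was 1.54, but -0.16 in cells of at most 3000 genes. On days 1 and 3 the gene was not compared, because the other kept cells (oligodendrocytes are a known source) had 1644 and 1258 CPM. Enpp2, the enzyme autotaxin that makes lysophosphatidic acid, had 13326, 10556, 10208 and 13310.1 CPM. Igfbp2 binds insulin-like growth factors and had 1999, 1813, 2160.2 and 2056 CPM. Neither was past the fold. Clu, which encodes the chaperone clusterin, had 1793, 2284, 2426 and 1702 CPM. Cst3, which encodes the protease inhibitor cystatin C, had 3446, 5088, 4560.3 and 3251 CPM. Apoe, which encodes the lipid carrier apolipoprotein E, had 2994, 5303, 4742 and 4606 CPM. In Clu and Cst3 days 1 and 3 lay above sham and day 7, while Apoe was lowest in sham.

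Vcam1, an adhesion molecule that binds leukocytes, was past the fold and higher on all 3 days, and was the 1 compared gene of 22 chemokine, cytokine and adhesion genes. It had 90.4 CPM in sham, 196 on day 1, 218 on day 3 and 217 on day 7 and ratios of 2.17 (95% interval 1.99 to 2.37), 2.41 (95% interval 2.21 to 2.64) and 2.40 (95% interval 2.17 to 2.65). Sham was lowest, and the 3 days were close to each other. Marker-low members had 85.8, 200.1, 178 and 212 CPM, with a log2 ratio of 0.97 on day 3, under the threshold. With median-of-ratios scaling the log2 ratio on day 7 was 0.95, also under it. The share of thinned members with a UMI was 18.0%, 31.2%, 35.4% and 33.7%, against 9.96%, 9.49%, 21.2% and 12.4% of the other kept cells. A2m, a protease inhibitor that was named by the size of its change, had 53.1 CPM in sham, 157 on day 1, 75.3 on day 3 and 44.3 on day 7 and a day 1 ratio of 2.95 (95% interval 2.64 to 3.31). The other kept cells had 0.592, 6.48, 2.87 and 0.701 CPM of A2m.

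Acute phase genes were highest on day 3 in all members, while marker-low members had similar sums on the 3 days. The list of 21 genes summed to 116, 246, 689 and 223 CPM in all members and to 104, 162, 158 and 165 in marker-low members. Timp1, a metalloproteinase inhibitor and the 1 gene compared, through day 3 alone, had 0.617 CPM in sham, 6.03 on day 1, 90.1 on day 3 and 0.178 on day 7 in all members and 0.673, 5.14, 1.58 and 0 in marker-low members. Lcn2, the iron-siderophore binding lipocalin, was not compared and had 0.463, 8.72, 244 and 3.56 CPM in all members, 0.336, 6.99, 12.4 and 0.234 in marker-low members and 35.0, 81.0, 1731 and 139.7 in the other kept cells. Serpina3n, a serine protease inhibitor, had no UMI in sham and 17.7, 4.55 and 0.178 CPM on days 1, 3 and 7. MHC class I genes, which present peptides to T cells, summed to 557, 512, 1287 and 869.6 CPM in all members, highest on day 3, and to 487, 418, 593 and 666 in marker-low members, where days 3 and 7 were above sham.

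Immediate-early genes were highest on day 7 as a sum. None of 16 was compared, since the other kept cells had far more (20174, 11516, 16382 and 22623 CPM summed). The list summed to 1712, 2093, 3311 and 4139 CPM in all members and 1389, 1339.7, 1586 and 2969 in marker-low members, in which day 7 stood above the other groups. Fos had 187, 285, 498 and 682 CPM, and 121, 135, 162 and 417 in marker-low members. Jun had 183, 171, 293 and 558 CPM, and 144, 115, 138 and 376 in marker-low members. Both encode parts of the transcription factor AP-1.

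Heat shock genes, which help proteins fold, were lower on day 1 as a sum. The list (8 of 14 compared on day 1, 1 past the fold and lower, beside 1.51% of all genes) had a summed ratio of 0.694 on day 1, 1.04 on day 3 and 0.983 on day 7. Hspa5, the endoplasmic reticulum chaperone BiP, was past the fold on day 1, with 861 CPM in sham, 402 on day 1, 757 on day 3 and 1010.1 on day 7 and a log2 ratio of -1.08 (-0.97 with median-of-ratios scaling, under the threshold). Hsp90aa1, the inducible cytosolic HSP90 chaperone, had 928, 493, 767 and 929 CPM. Hsp90ab1, the constant one, had 1213, 704, 1036 and 997 CPM, and both were lowest on day 1. Marker-low members had ratios of 0.656, 0.974 and 0.956 for the list, with day 3 on the other side of sham. The low day 1 was also seen in ependymal cells, with ratios of 0.674, 0.962 and 0.832. In the other kept cells the ratios were 0.923, 1.19 and 0.817. None of the 11 compared hypoxia and glycolysis genes was past the fold, which at the shares over all genes says nothing about the list. The summed list had ratios of 0.898 on day 1, 1.24 on day 3 and 0.872 on day 7. With an upper limit of 3000 genes its day 3 ratio was 0.858, on the other side of sham. Ependymal cells had ratios of 1.14, 1.21 and 0.936 for this list, and the other kept cells 1.38, 1.38 and 1.05. Metal-binding and antioxidant genes had ratios of 1.43 on day 1, 1.24 on day 3 and 0.783 on day 7. Mt3, a metallothionein, had 2445 CPM in sham, 4422 on day 1, 2919 on day 3 and 1888 on day 7 and log2 ratios of 0.85, 0.25 and -0.37.

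Genes of the mitochondrial genome were lower on days 1 and 3 within the limits of the rule. The 13 genes summed to 80894, 53209, 52689.9 and 77971 CPM, and the ratios were 0.658 on day 1, 0.651 on day 3 and 0.964 on day 7. In cells of at most 3000 genes, a stricter upper limit, the day 1 ratio was 1.10, on the other side of sham. The ratios in ependymal cells were 0.663 on day 1, 0.842 on day 3 and 1.05 on day 7. In the other kept cells they were 0.826, 0.730 and 1.11, so the fall on days 1 and 3 was not particular to members. Since the rule caps these genes at 10%, the values are a description. The genes mt-Atp8 (769, 207, 244 and 560.2 CPM) and mt-Nd2 (4324, 1649.6, 2099.9 and 3800.4 CPM) were past the fold on days 1 and 3, 2 of 13 genes beside 1.51% and 0.578% of all genes lower on these days. In marker-low members mt-Nd2 had a day 3 log2 ratio of -0.97, just inside the threshold. The 95 nuclear genes of oxidative phosphorylation had the other order, with ratios of 1.20 on day 1, 1.09 on day 3 and 0.821 on day 7. At 3000 genes their ratios were 0.961 on day 1 and 0.724 on day 3, on the other side of sham. In thinned members their day 3 ratio was 0.999. The 85 ribosomal protein genes had ratios of 1.16 on day 1, 1.16 on day 3 and 0.882 on day 7. For them ependymal cells had 1.13, 1.13 and 0.883 and the other kept cells 1.41, 1.19 and 0.927. Both sets of genes thus moved in the same direction outside the members. Cox8b, a subunit of cytochrome c oxidase that the other kept cells hardly had (0.685, 3.39, 4.72 and 1.72 CPM), was past the fold on days 1 and 7, with 118 CPM in sham, 252 on day 1, 228 on day 3 and 379 on day 7. Its day 7 ratio was 3.22 (95% interval 2.96 to 3.50). Rpl22l1, which encodes a ribosomal protein L22-like protein, had 532 CPM in sham, 1074 on day 1, 676 on day 3 and 518 on day 7 and was past the fold on day 1 (log2 ratio 1.00).

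Several genes outside the lists stood out by size on day 3 or day 7. Abhd2, a lipase gene, had 203 CPM in sham, 339 on day 1, 508 on day 3 and 576 on day 7, with log2 ratios of 0.71, 1.28 and 1.46, so each day after tMCAO was above sham. Iqgap2, a scaffold protein gene of the cytoskeleton, had 26.8 CPM in sham, 39.1 on day 1, 40.2 on day 3 and 107 on day 7 and a day 7 ratio of 3.97 (95% interval 3.35 to 4.73). It reached 50 CPM on day 7 alone, where it is high. Sox9, a transcription factor gene of glia and ependyma, had 82.0 CPM in sham, 102 on day 1, 106 on day 3 and 225 on day 7 and a day 7 ratio of 2.74 (95% interval 2.47 to 3.04), and ependymal cells had 679.9, 637, 655 and 1082 CPM. Grcc10 had 112, 114, 255 and 96.4 CPM. Hist2h2aa1, a histone H2A gene, had 39.9, 30.6, 101 and 30.4 CPM. Both were past the fold on day 3 alone, and Hist2h2aa1 reached 50 CPM only on that day. The endothelin receptor gene Ednrb, of the list of hormone and growth factor receptors, had 20.8 CPM in sham, 38.5 on day 1, 27.3 on day 3 and 51.8 on day 7 and was compared only through day 7, where it is high. Its log2 ratio of 1.00 fell to 0.81 with median-of-ratios scaling, under the threshold.

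Hemoglobin genes led the list of day 7 by log2 ratio, but rested on few cells. Hbb-bs had 29.8 CPM in sham, 3.14 on day 1, 683 on day 3 and 648 on day 7 in all members and 24.0, 3.08, 18.6 and 4.44 in marker-low members. On day 7, 5 cells held 99.3% of its UMIs in members. The marker list holds these genes, so their low level in marker-low members is by choice and only shows how few cells carried them. The log2 ratio was 4.05 in all members and -1.24 in marker-low members, and Hbb-bt and Hba-a1 went the same way (3.18 to -0.40 and 2.74 to -0.43). In members without a UMI of any of 4 marker genes of endothelial cells, oligodendrocytes and microglia, none of them a hemoglobin gene, the log2 ratio of Hbb-bs was -1.61. Reads of the near-identical globin genes may also have been shared among them in counting.

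Further genes that were lower by size had no list. Mtdh, which encodes an endoplasmic reticulum and nuclear protein, had 324, 169.7, 149.6 and 329 CPM and was past the fold on day 3. Son, which encodes a protein of nuclear splicing speckles, had 398, 159, 189 and 338 CPM and was past the fold on days 1 and 3. Ap1s2, a clathrin adaptor subunit gene, had 155, 57.8, 88.1 and 144 CPM, lowest on day 1. The gene model Gm47283 had 119, 43.5, 51.1 and 35.0 CPM and was past the fold on all 3 days, and Tcea3, an elongation factor gene, had 107, 69.8, 61.1 and 47.9 CPM and was past it on day 7. In marker-low members the log2 ratio of Tcea3 on day 7 was -0.99, just inside the threshold. Gm47283 reached 50 CPM in sham alone in the comparisons of days 1 and 7, as did Tcea3 in that of day 7.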

How the data were processed

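Single-cell RNA-seq (10x Genomics) was made from 4 libraries, 1 for each group. The deposited matrices hold raw UMI counts, with no scaling for depth. The submitters' processing notes name Cell Ranger 3.0.1, Seurat 4.1.2 and GRCh38, while the file headers name Cell Ranger 4.0.0 and the gene IDs are of mouse. Coordinates are from GENCODE vM21 on GRCm38, in which 30934 of 31053 gene IDs (99.6%) were found. Cells were selected anew from the counts, so values can differ from those of the study for that reason alone.

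The members and gene lists were chosen with earlier results of these data known. UMIs were summed over the members of a library and given as CPM. Intervals are exact (Poisson for levels, Clopper-Pearson for shares, conditional binomial for ratios) at 95% and cover counting error only. No test was made, as each group had 1 library. Named genes were those of the lists and, for each day, the 8 highest and 8 lowest log2 ratios past the fold with at least 100 CPM and 50 UMIs in the higher library. Some genes that this rule takes are not reported here. Doublets were called with Scrublet in scanpy 1.11.5 and kept. Python 3.11.15, NumPy 2.4.6, SciPy 1.17.1, pandas 2.3.3 and matplotlib 3.10.9 were used. The comparison was run on simulated counts drawn from the sham members' levels with counting error alone. That run checks the calculation only. It held no spread between cells, RNA of other cells or differences between libraries. Alternatives were other gates, limits, filters, scalings and added constants.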

Additional observations from a re-analysis of the deposited data

How the results depend on the processing

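No paired analysis was possible because each group had 1 library and the result comes from no test. Other gates and limits moved the share of members. In sham it was 3.15% with a gate of at least 2 genes, 1.87% in marker-low members, 0.495% with a mitochondrial limit of 5%, 4.96% with no upper limits, 1.04% with none of the 3 cilium genes and 0.965% with an upper limit of 3000 genes. On day 1 it was 5.51% without Scrublet calls, 6.75% with at least 2 genes, 4.83% in marker-low members, 3.31% at 5% mitochondrial UMIs, 3.28% with no cilium gene and 1.5% at 3000 genes. On day 3 it was 6.14% with at least 2 genes, 4.74% with at least 4, 4.57% when gated on thinned cells, 3.12% in marker-low members, 3.01% at 5%, 2.27% with no cilium gene and 0.928% at 3000 genes. On day 7 it was 2.33% with at least 2 genes, 1.69% with at least 4, 2.24% on thinned cells, 1.24% in marker-low members, 0.594% at 5%, 3.03% with no upper limits, 1.09% with no cilium gene and 0.919% at 3000 genes.

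Counts of genes past the fold moved with filters and scaling. Higher genes on day 1 were 2 with 50 CPM added, 2 with a filter of 200 CPM, 39 with no filter on other cells and 5 with no upper limits. Higher genes on day 3 were 3 with 50 CPM added, 13 with Ttr and mitochondrial genes left out of the total, 4 at the full level of other cells, 4 at 200 CPM, 24 by the mean of single cells, 29 in thinned members, 14 with no CPM filter, 91 with no filter on other cells, 33 with no cilium gene and 251 at 3000 genes. Higher genes on day 7 were 93 with 1 CPM added, 10 with 50 CPM, 96 without Ttr and mitochondrial genes, 30 at the full level of other cells, 12 at 200 CPM, 165 by the mean of single cells, 16 with median-of-ratios scaling, 157 in thinned members, 120 with no filter on other cells, 22 with no upper limits and 249 at 3000 genes. Lower genes on day 1 were 12 with 50 CPM added, 16 at 200 CPM, 16 with median-of-ratios scaling and 155 at 3000 genes. Lower genes on day 3 were 4, 7, 5, 24, 24, 21 and 118 with 50 CPM added, at the full level of other cells, at 200 CPM, in thinned members, in members without a UMI of any of 4 marker genes of other cell classes, with no CPM filter and at 3000 genes. Lower genes on day 7 were 7 with 1 CPM added, 0 with 50 CPM, 8 without Ttr and mitochondrial genes, 0 at 200 CPM, 7 by the mean of single cells, 16 with median-of-ratios scaling, 26 in thinned members, 17 without those 4 marker genes, 11 with no CPM filter and 86 at 3000 genes.

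Of the list ratios of at least 1.5-fold and the genes past the fold, some changed direction. With 3000 genes as the limit these were chemokines, cytokines and adhesion genes on day 1 (ratio 0.991), the mitochondrial genome on day 1 (1.10), cell cycle genes on day 1 (0.710) and Trf on day 7 (log2 ratio -0.16). Without a UMI of the 4 marker genes, immediate-early genes on day 3 (0.955) and, on day 7, Hbb-bs (-1.61), Hbb-bt (-0.30) and Hba-a1 (-0.11) did so, and in marker-low members the genes Hbb-bs (-1.24), Hbb-bt (-0.40) and Hba-a1 (-0.43), which are in the marker list itself. Of all 66 list ratios, those under 1.5-fold included, 13 changed direction at 3000 genes, 11 in marker-low members (immediate-early genes on day 1 at 0.965 among them), 10 without a UMI of the 4 marker genes, 8 with median-of-ratios scaling, 8 in thinned members, 8 with no upper limits and 7 with a gate of at least 2. The causes were not tested. The settings with no upper limits and with marker-low members were chosen after seeing the data.

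Of 34 named comparisons, 33 stayed past the fold with median-of-ratios scaling, 28 in marker-low members and 19 at 3000 genes. The limit of 3000 genes left 73, 201, 87 and 129 members. Depth limits low genes most on day 7, where 44 of 326 members had under 2000 UMIs.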

Other observations

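The genes of this paragraph were chosen after their values were seen. The first 6 were picked from the 30 lower genes of day 1. Hsp90b1 (GRP94) had 1140.3 CPM in sham, 512 on day 1, 1063 on day 3 and 1054 on day 7 and a day 1 ratio of 0.449 (95% interval 0.436 to 0.463). Calr (calreticulin) had 590.2, 285, 606 and 544 CPM, Dnajc3 354, 142, 246 and 332, Pdia6 316, 152, 333 and 294, Manf 460.0, 221, 455 and 465 and Sdf2l1 154, 66.5, 169 and 143 in the same order of libraries, so day 1 was the low library in each. With median-of-ratios scaling Calr (-0.91), Manf (-0.91) and Pdia6 (-0.90) had day 1 log2 ratios under the threshold. Manf and Pdia6 were not past the fold in marker-low members, where Manf had 464, 229.7, 474 and 491 CPM and Pdia6 316, 158, 338 and 307 CPM.

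Cidea, a lipid droplet protein gene, was past the fold on all 3 days, with 65.1 CPM in sham, 7.20 on day 1, 2.35 on day 3 and 9.78 on day 7 in members and 70.5, 7.54, 2.86 and 9.59 in marker-low members. The other kept cells had 1.56, 4.83, 1.46 and 1.17 CPM. Ins2, an insulin gene whose transcript the choroid plexus is known to make, had 90.2 CPM in sham, 62.9 on day 1, 35.3 on day 3 and 36.3 on day 7 and was past the fold on days 3 and 7. Wfikkn2, which encodes a secreted protease inhibitor domain protein, had 59.99, 38.3, 18.1 and 84.5 CPM and was lowest on day 3. The next 6 genes were picked from the 52 higher genes of day 7. Cyp51, an enzyme of cholesterol synthesis, had 27.5, 18.7, 35.5 and 82.9 CPM. Insig1, a regulator of sterol synthesis, had 31.9, 36.1, 60.4 and 87.5 CPM. Soat1, which esterifies cholesterol, had 29.6, 39.7, 37.8 and 80.9 CPM. Vldlr, a lipoprotein receptor, had 61.7, 95.6, 74.8 and 141 CPM. The transcription factor gene Nr2f2 had 23.7, 44.0, 57.6 and 81.3 CPM. Rfx3, a transcription factor gene of ciliated cells, had 20.2, 26.8, 24.0 and 56.6 CPM. Day 7 was highest in each. With median-of-ratios scaling the day 7 log2 ratios were 1.10 for Cyp51, 1.01 for Insig1 and 1.23 for Nr2f2, and 0.99 for Soat1, 0.94 for Rfx3 and 0.86 for Vldlr, the last 3 under the threshold. Cyp51, Insig1, Soat1, Nr2f2 and Rfx3 reached 50 CPM on day 7 but not in sham. In the comparison of day 3, Cidea, Ins2 and Wfikkn2 reached it in sham alone. All genes of this paragraph were also chosen after their values were seen, and no test of them as groups was made.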
